A study of Chlorocebus sabaeus with 45 samples.

Results

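The 9 genes described here, CXCR1, CXCR2, FPR1, FPR2, PROK2, MGAM, GCA, MME and ALPL, encode surface, chemotaxis and granule proteins of mature neutrophils. They were taken by their symbols from the 33994 gene rows of 45 whole-blood RNA-seq tables, and all 9 were present and passed the filter that left 18753 genes for testing. The set was chosen by measured values, namely the lower levels of such genes at the later time points than on day 0 in these same libraries. Their differences from day 0 are therefore given as descriptions that support nothing, and only the comparison of day 14 with day 3 and the relations between genes and between days were tested.

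The libraries came from 15 juvenile male vervet monkeys (Chlorocebus sabaeus), each sampled at 3 time points named Tp1, Tp2 and Tp4 (day 0, day 3 and day 14). The animals were wild and trapped on St. Kitts, with 1 animal taken per troop, and they served as a model of psychosocial stress (PS) through relocation and quarantine. The day 0 libraries are from blood drawn in the field soon after trapping, under ketamine and xylazine. The day 3 and day 14 libraries are from the same animals in individual housing, sampled under dexmedetomidine and midazolam. Place and sedative therefore cannot be told apart from the difference between day 0 and the later days, and no group of unmoved animals was sequenced. The sample labels give day 14 for the last time point, whereas the series' design text gives the day after it. Whole blood holds all blood cells, so a lower level of a gene can come from fewer cells of a type or from less RNA per cell, and the 2 cannot be told apart here.

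Neutrophils leave the bone marrow as mature cells and follow gradients of chemoattractants into tissue. CXCR1 and CXCR2 are G protein-coupled receptors for CXCL8 and related chemokines, and both are found on the surface of mature neutrophils. FPR1 and FPR2 are receptors for formylated peptides released by bacteria and by damaged mitochondria, with FPR2 also binding lipid and protein ligands such as annexin A1 and serum amyloid A. PROK2 is a small secreted chemoattractant, prokineticin 2, which neutrophils themselves produce. MGAM (maltase-glucoamylase), MME (the endopeptidase neprilysin, CD10) and ALPL (tissue-nonspecific alkaline phosphatase) are ectoenzymes, of which MME and alkaline phosphatase have long been used as markers of neutrophil maturity. GCA (grancalcin) is a calcium-binding protein of neutrophil granules and cytosol. Several of these genes are also active outside neutrophils, FPR1 and FPR2 in monocytes among them.

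Levels are given as FPKM (fragments on a gene divided by the gene's length and the library's total on genes), scaled between libraries by TMM, a trimmed mean of log ratios. Fold changes are differences of log2(scaled FPKM + 0.1). Between 13216275 and 31469332 fragments per library fell on genes, and 43 to 141284 fragments lay behind a single value of the 9 genes. The lowest of these counts were those of PROK2. TMM sets changes relative to the typical gene. With it the median gene moved by 0.01 (log2) from day 0 to day 3, by −0.02 from day 0 to day 14 and by −0.02 from day 3 to day 14. Without it these medians were −0.03, −0.36 and −0.35.

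On day 0 the chemokine receptors varied widely between animals. CXCR1 ranged from 27.04 to 532 FPKM with a median of 53.6 on day 0, from 7.67 to 74.0 with a median of 34.3 on day 3, and from 6.64 to 80.5 with a median of 27.01 on day 14. The ranges overlapped, but 7 of the 15 day 0 libraries lay above the highest library of day 3, and 7 above the highest of day 14. The log2 fold change of CXCR1 relative to day 0 was −1.51 for day 3 (SE 0.41, 2.85-fold lower, lower in 12 of 15 animals) and −1.52 for day 14 (SE 0.41, lower in 13 animals). CXCR2 had medians of 157, 83.0 and 76.5 FPKM on days 0, 3 and 14, with ranges of 48.1 to 572, 22.8 to 174 and 18.1 to 148. Relative to day 0 its log2 fold change was −1.14 (SE 0.33, lower in 12 animals) on day 3 and −1.25 (SE 0.33, lower in 13) on day 14. All 15 day 14 libraries lay below the day 0 median of CXCR2, and 9 day 0 libraries lay above the highest day 14 library. Within every library CXCR1 had fewer FPKM than CXCR2. The ratio of CXCR1 to CXCR2 had a median of 0.532 (range 0.290 to 0.971) on day 0, 0.395 (0.309 to 0.476) on day 3 and 0.396 (0.308 to 0.544) on day 14, so the upper end of the range was reached on day 0.

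Among the formyl peptide receptors, FPR1 was the more abundant. A description in the study's supplement gives its row the name of HAS1, the next gene along the chromosome, but HAS1 has a row of its own, which held at most 0.613 FPKM in the 45 libraries. It ranged from 73.2 to 1712 FPKM (median 148) on day 0, from 60.3 to 322 (median 133) on day 3 and from 49.2 to 223 (median 117) on day 14. Its medians lay close together although its highest day 0 library was 11.5 times the day 0 median, and 7 day 0 libraries lay above the highest library of either later day. The log2 fold change of FPR1 from day 0 was −0.99 (SE 0.37, lower in 9 animals) on day 3 and −1.22 (SE 0.37, lower in 11) on day 14. FPR2 went from a median of 21.4 FPKM (8.20 to 222) on day 0 to 20.5 (7.93 to 50.3) on day 3 and 12.6 (6.24 to 21.7) on day 14, and its log2 fold changes from day 0 were −0.80 (SE 0.36, lower in 8 animals) and −1.35 (SE 0.36, lower in 12). The level of FPR2 was 0.112 of that of FPR1 on day 0 in the median library, 0.131 on day 3 and 0.115 on day 14. FPR2 and FPR1 are neighbours in the RefSeq gene table (assembly mChlSab1.0.hap1, of which only names and gene order were used, with 8 of the 9 symbols matched), and FPR3 lies beside FPR2. CXCR1 and CXCR2, like the formyl peptide receptors, are similar in sequence, and how fragments that match both copies were counted is not given in the sources used here. The split between such pairs is therefore uncertain.

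PROK2, the chemoattractant of the set, had the lowest levels, and its highest day 0 library held 41.8 times the level of the lowest. On day 0 it ranged from 1.08 to 45.2 FPKM with a median of 3.34. On day 3 the range was 0.466 to 4.62 (median 0.856) and on day 14 it was 0.341 to 2.79 (median 0.694). On day 3, 9 libraries and on day 14, 8 libraries lay below the lowest day 0 library. The log2 fold change was −2.13 on day 3 (SE 0.41, 4.39-fold lower, lower in 13 animals) and −2.39 on day 14 (SE 0.41, 5.25-fold lower, lower in 14 animals), the largest of the 9 genes at both time points. This order depends on the added value: with 1 in place of 0.1 added to the FPKM, GCA had the largest change (−1.93 on day 3 and −1.92 on day 14). The 2 receptors of prokineticins, PROKR1 and PROKR2, did not reach the level for testing: their summed FPKM had a median of 0 on every day and a highest value of 0.110.

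The ectoenzyme genes were also higher on day 0. MGAM ranged from 11.3 to 163 FPKM (median 24.3) on day 0, from 3.69 to 37.3 (median 12.7) on day 3 and from 2.92 to 20.03 (median 7.65) on day 14. It was the 1 gene of the set that was lower on day 14 than on day 0 in all 15 animals, and 12 day 14 libraries lay below its lowest day 0 library. The log2 fold change of MGAM was −1.23 (SE 0.35, lower in 11 animals) on day 3 and −1.96 (SE 0.35) on day 14. MME had medians of 28.3 (14.2 to 166), 13.7 (6.98 to 45.7) and 18.9 (7.78 to 36.4) FPKM on days 0, 3 and 14. Of the 9 genes it had the smallest log2 fold change on day 14 vs. day 0, −1.06 (SE 0.31, lower in 14 animals), after −1.30 (SE 0.31, lower in 13) on day 3. ALPL went from a median of 22.1 FPKM (8.14 to 97.9) to 12.6 (3.31 to 38.5) and 8.37 (3.56 to 20.1), with log2 fold changes from day 0 of −1.36 (SE 0.35, lower in 11 animals) and −1.81 (SE 0.35, lower in 13). All day 14 libraries lay below the day 0 median of MGAM and of ALPL, and 12 of 15 below that of MME.

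The highest day 0 level of GCA was close to that of FPR1. GCA ranged from 45.01 to 1711 FPKM (median 103) on day 0, from 14.3 to 115 (median 42.3) on day 3 and from 13.3 to 129 (median 40.7) on day 14. The highest day 0 library, that of animal 11, was 16.7 times the median of the day. The log2 fold change of GCA was −1.96 (SE 0.44) on day 3 and −1.94 (SE 0.44) on day 14, with lower values in 14 of 15 animals each time. These values lay close together, as did those of CXCR1.

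**Figure D1:**
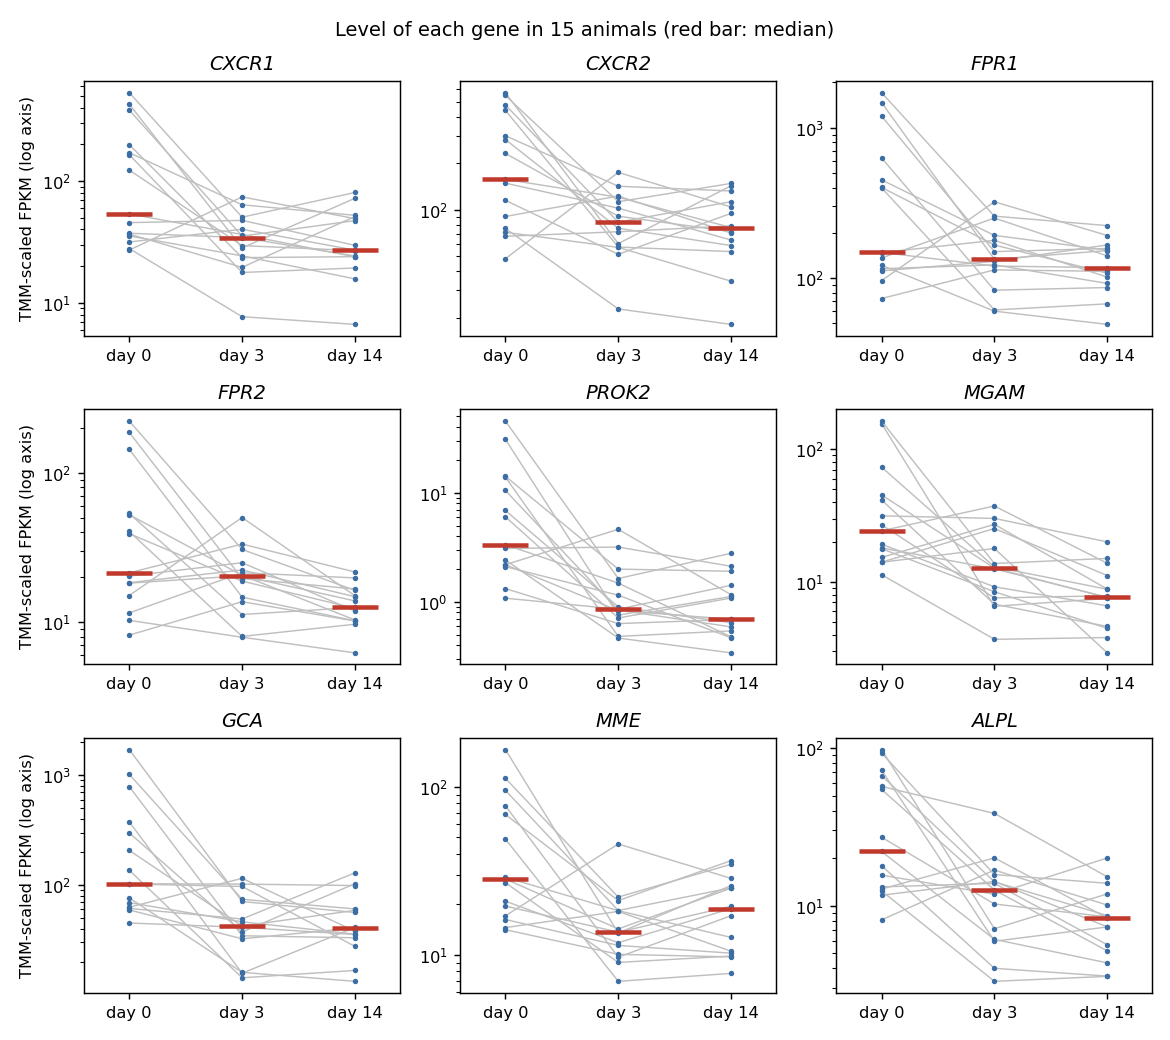
Level of each of the 9 genes in TMM-scaled FPKM (y axis, log scale) on days 0, 3 and 14 (x axis). Each point is 1 library, grey lines join the 3 libraries of an animal, and red bars are medians over 15 animals; the points spread furthest on day 0, where GCA runs from 45.01 to 1711 FPKM, and the ranges of the days overlap for every gene.

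Across the set, the median log2 fold change relative to day 0 was −1.30 for day 3 and −1.52 for day 14. Since these differences chose the genes, the calls among them were fixed by the choice and carry no weight: 7 of the 9 on day 3 and 9 on day 14 were past the limma threshold, where 12.2% of all tested genes were on day 3 (6.19% as lower and 6.04% as higher) and 36% on day 14 (17.3% as lower and 18.8% as higher). With the RNA integrity number of each sample as a covariate, the log2 fold changes lay between −1.92 and −0.70 on day 3 and between −1.95 and −0.79 on day 14. With the animal as a replicate block as well, they lay between −2.01 and −0.79 and between −2.14 and −0.91. With the covariate alone 5 were past the threshold on each day. The integrity numbers were read from page images of the study's supplement and may hold reading errors. The part of RNA integrity in the differences was not tested further.

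Between day 3 and day 14, when housing and sedation were alike, the differences were smaller, and none passed the test. MGAM had a log2 fold change of −0.72 (SE 0.35, 95% interval −1.43 to −0.02, adjusted p = 0.150 from limma, lower in 11 of 15 animals). FPR2 followed with −0.55 (SE 0.36, interval −1.27 to 0.16, adjusted p = 0.295, lower in 13 animals), and ALPL with −0.45 (SE 0.35, interval −1.15 to 0.26, adjusted p = 0.398, lower in 11). GCA (0.02, interval −0.86 to 0.90) and CXCR1 (−0.02, interval −0.83 to 0.80) had the values nearest to 0. MME was the gene with the largest difference upwards, 0.25 (interval −0.39 to 0.88), and was higher on day 14 in 10 of 15 animals. None of the 9 genes was called by limma, 1 (MGAM) had an unadjusted p-value under 0.05, and the median log2 fold change was −0.23. Of all tested genes 13.3% were called, 5% as lower and 8.32% as higher. These intervals are wide and do not show that the levels were alike.

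The spread in that fit was shared with the day 0 libraries, which varied more. In a fit chosen after the values were seen, on differences within the animal from the libraries of days 3 and 14 alone, FPR2 (SE 0.13, adjusted p = 0.00699 from limma) and MGAM (SE 0.18, adjusted p = 0.0106) were lower on day 14, and 24.4% of all tested genes were called, 10.5% as lower. ALPL (adjusted p = 0.0650) and FPR1 (adjusted p = 0.1003) did not pass. In the same fit the 95% interval was −0.37 to 0.34 for CXCR1 and −0.46 to 0.49 for GCA. Without TMM, FPR2 (adjusted p = 0.0190), MGAM (0.00658) and ALPL (0.0371) were called lower in the fit of all libraries. The median gene was then at −0.35, and 6600 of all 18753 tested genes were called lower. These calls without TMM therefore do not set FPR2, MGAM and ALPL apart from the other tested genes. MGAM and PROK2 were known from earlier results for their low levels on day 14, and GCA for its low level on day 3. The comparisons of these genes between days 3 and 14 therefore share libraries with the choice of the genes.

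**Figure D2:**
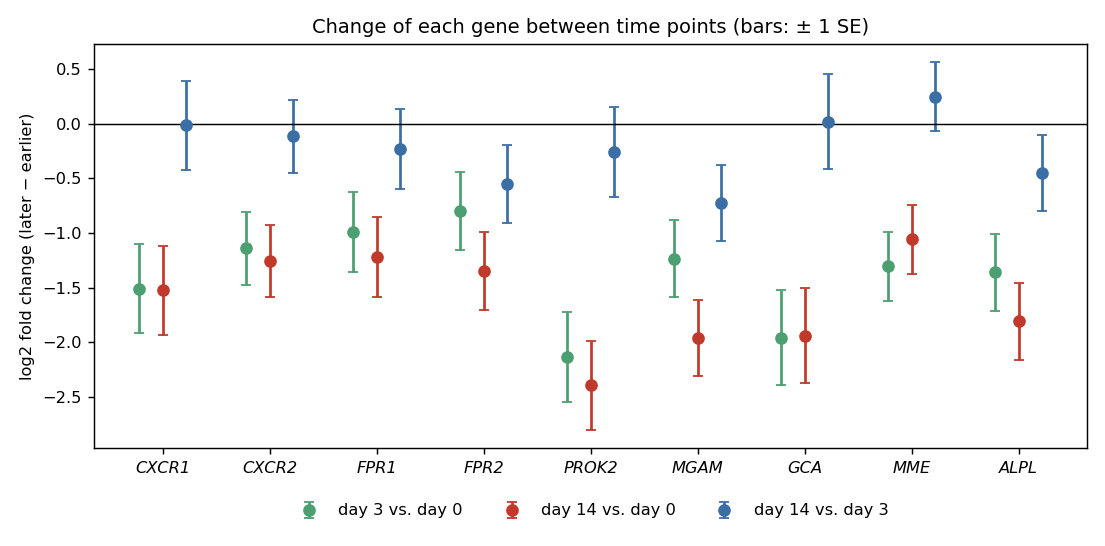
Log2 fold change (y axis, later minus earlier) of each of the 9 genes (x axis) in the 3 comparisons, which share libraries. Points are limma estimates from 15 animals and bars are ± 1 SE; all values vs. day 0 lie between −2.39 and −0.80, whereas those of day 14 vs. day 3 lie between −0.72 and 0.25.

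The animals differed in the size and direction of these differences. On day 3, all 9 genes were lower than on day 0 in 8 of 15 animals, at least 5 were lower in 12 animals, and none was lower in animal 3. The median over the 9 genes of the log2 difference between day 3 and day 0 ranged from −3.61 in animal 7 to 1.04 in animal 5, with a median of −1.34. On day 14, all 9 were lower than on day 0 in 10 animals and at least 5 in 13, and the median difference ranged from −3.29 in animal 7 to 0.36 in animal 1. Animals 15 and 7 were among the 3 highest day 0 libraries for each of the 9 genes, and animal 11 for 8 of them. Animal 15 was again among the 3 highest on day 14 for 7 genes, and animal 7 for 2. Leaving out each animal in turn kept the log2 fold change of every gene from day 0 below 0, and the median of the set stayed between −1.50 and −1.14 on day 3 and between −1.69 and −1.41 on day 14.

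**Figure D3:**
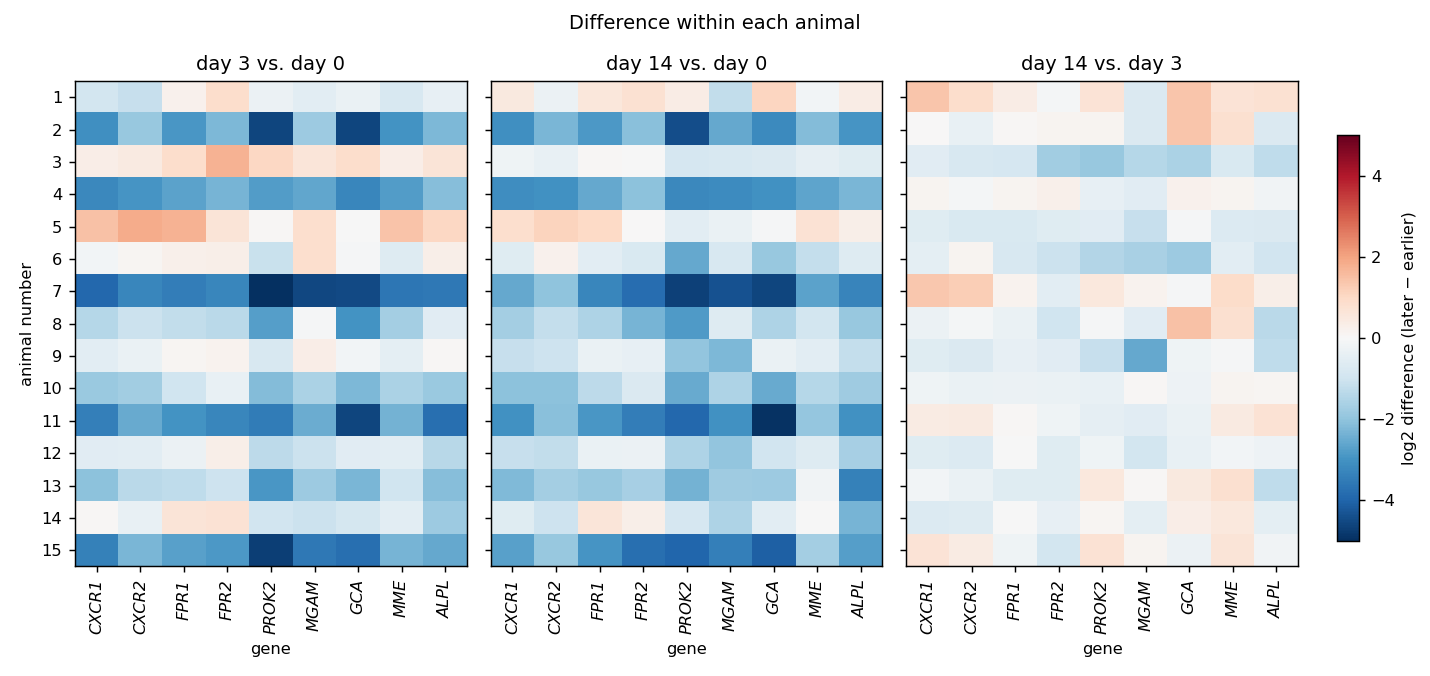
Log2 difference within each animal (rows) for each gene (columns) in the 3 comparisons (panels), blue where the later day was lower and red where it was higher. In the panels vs. day 0, most rows hold 1 colour: animal 7 is blue for all 9 genes and animal 5 is red or near 0 for most on day 3.

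The spread between animals was widest on day 0. The standard deviation of the log2 level over 15 animals was 1.18 to 1.67 for the 9 genes on day 0 (median 1.51), 0.66 to 0.96 on day 3 (median 0.81) and 0.45 to 0.93 on day 14 (median 0.75). The median over all tested genes was 0.43, 0.41 and 0.40 on these days, so that the 9 genes were more variable than the typical gene on each day. Smaller than the median of the set was the standard deviation of 98.7% of all tested genes on day 0, of 89.1% on day 3 and of 86.2% on day 14.

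No relation was found between an animal's level on day 0 and its level on day 3. Over the 15 animals, Pearson's r between these days was between −0.13 and 0.15 for the 9 genes and Spearman's rho between −0.11 and 0.16, with adjusted p of 0.777 and above in two-sided permutation tests over the 27 relations computed. Between days 0 and 14, r was 0.14 to 0.55 and rho 0.16 to 0.51, and none passed the adjustment. On FPKM in place of log2 values, CXCR1 passed between these days (r = 0.74, adjusted p = 0.0350 by permutation). Days 3 and 14 were more alike, with r of 0.49 to 0.84 and rho of 0.38 to 0.80. By r, 7 genes passed (all but PROK2 and GCA), and by rho 4 did (FPR1, FPR2, MGAM and MME). FPR1 had the highest r, 0.84 (permutation p = 9e-05, adjusted p = 0.00243), with a rho of 0.75 (p = 0.00208, adjusted p = 0.0273), and r was 0.75 without the 2 animals farthest from the day 3 median. The same omission took r from 0.69 to 0.40 for CXCR1, from 0.67 to 0.33 for CXCR2 and from 0.65 to 0.41 for ALPL, and it left 0.48 to 0.59 for FPR2, MGAM and MME. Such an omission narrows the range of levels, which by itself lowers r. How far these relations rest on those animals was not tested. The relations between days also depended on the scaling: without TMM, r between days 3 and 14 was 0.18 to 0.44 and 0 of 27 relations passed. Whether the relation to day 3 differs from that to day 0 was not tested.

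Within a day the genes were correlated over the animals. Over the 36 pairs the median r was 0.90 (range 0.80 to 0.97) for day 0, 0.73 (0.55 to 0.96) for day 3 and 0.73 (0.32 to 0.97) for day 14, and the median rho was 0.83, 0.70 and 0.71. These pairs were computed after the values were seen. By r, pairs of receptors were the closest on each day. By rho this held on days 3 and 14, and on day 0 PROK2 and GCA were the closest (rho 0.94). CXCR1 and FPR1 had an r of 0.97 on day 0 (rho 0.89, both permutation p = 1e-05, the smallest that 100000 permutations can give, adjusted p = 4.5e-05 and 9e-05 over 108 relations). CXCR1 and CXCR2 had an r of 0.96 on day 3 and 0.97 on day 14 (rho 0.94 and 0.96). FPR2 was the gene least tied to the others on day 14, with a median r of 0.55 with the other 8 genes and its lowest values with MME (r = 0.32, rho = 0.31, permutation p = 0.244 and 0.254) and MGAM (r = 0.34, rho = 0.43, p = 0.211 and 0.110). By r, all 36 pairs passed the adjustment on days 0 and 3, and 34 did so on day 14. By rho the numbers were 36, 34 and 31. Without the 2 animals farthest from the median of the first gene of a pair, r was 0.70 to 0.96, 0.32 to 0.92 and 0.04 to 0.95. Pairs within a library share its composition: without TMM the median r was 0.86, 0.74 and 0.62.

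**Figure D4:**
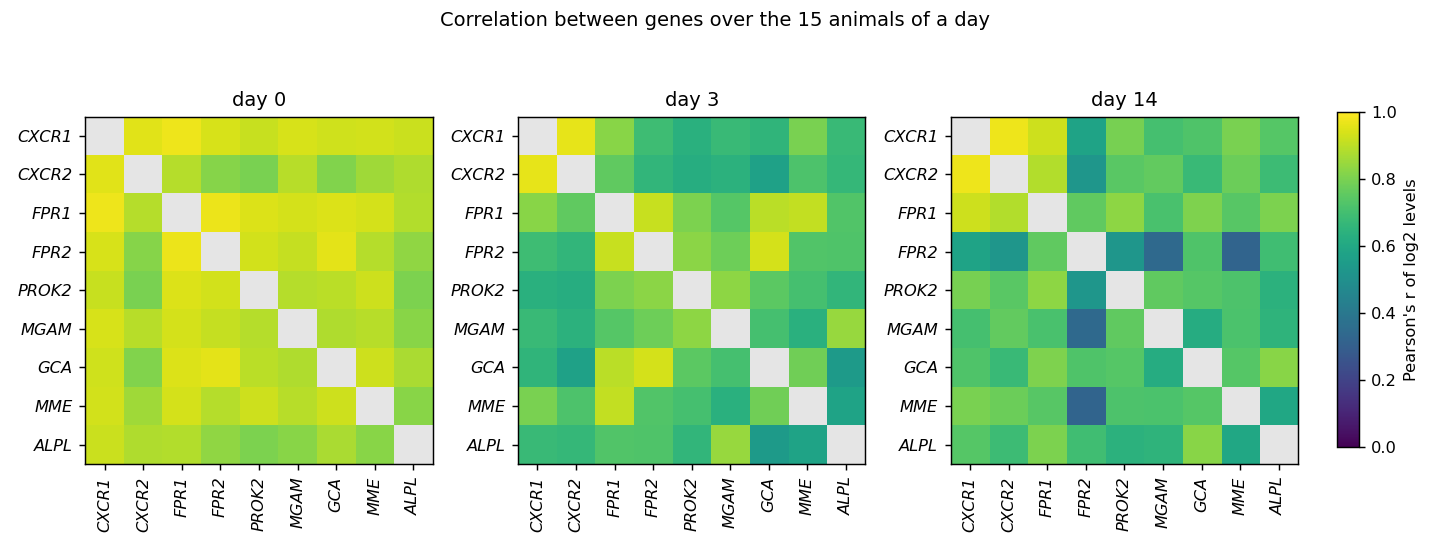
Pearson's r (colour) between the log2 levels of each pair of the 9 genes over the 15 animals, in 1 panel per day. Colours are brightest on day 0, where the lowest r is 0.80, and FPR2 forms a darker row on day 14, where its r with MME is 0.32.

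The genes were ordered by their level per length of gene. By the median of the deposited FPKM, CXCR2, FPR1, GCA and CXCR1 took the first 4 places on each day and PROK2 the last. Neighbours in the order were compared within libraries by two-sided exact sign-flip tests over 15 animals, with p-values adjusted over 24 pairs. On day 0 CXCR2 had the higher median, but FPR1 was the higher in 11 of 15 libraries (mean log2 difference 0.65, SD 0.72, in favour of FPR1, adjusted p = 0.00879). FPR1 was first on day 3 (higher than CXCR2 in 14 libraries, adjusted p = 4.19e-04) and on day 14 (15 libraries, adjusted p = 2.93e-04). In the middle of the order, ALPL, MME, FPR2 and MGAM were not separated beyond their spread on day 0 (adjusted p of 0.0777 to 0.489 between neighbours). On day 3 this held for MME, ALPL and MGAM (0.0587 and 0.105), and on day 14 for MME and FPR2 (0.0510) and for MGAM and ALPL (0.835). PROK2 was below its neighbour in all 15 libraries of each day, with a mean log2 difference of 2.53 to 3.43 over the libraries of a day.

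The genes that tracked the set most closely were sought among 10930 other genes with a mean of at least 5 CPM (fragments scaled to the library's total on genes). Over the 45 libraries, after subtraction of the day means, ENTPD3 (r = 0.96), CEACAM8 (0.96), QPCT (0.96), NCF4 (0.96) and FCAR (0.96) had the highest r with the mean of the 9 standardised log2 levels. CEACAM8 is a surface glycoprotein of granulocytes, FCAR the receptor for IgA on myeloid cells and NCF4 a subunit of the phagocyte oxidase. The members themselves had an r of 0.87 (ALPL) to 0.98 (FPR1) with this mean, of which each is a part. An r of at least 0.9 was reached by 96 other genes. These values describe libraries that share their composition and carry no test.

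Other genes of chemoattraction were mostly lower on day 14 as well. Of 13 tested chemoattractant receptors outside the set, 2 were called on day 3 relative to day 0, CCR1 lower and CMKLR1 higher, against 12.2% of all tested genes. That count rested on single animals: leaving out 1 animal moved it by more than 1.5 times for 11 of 15 animals, from 0 (without animal 2, 4, 7 or 12) to 4 (without animal 5), and it was 7 with the replicate block, 0 with the RNA integrity number and 0 without the filter. By day 14, 8 were called lower than on day 0 and 1 higher, with a median of −0.79 over the 13, against 36% of all genes, and with the RNA integrity number 2 of the 13 were called. Over all 18753 tested genes, the RNA integrity number gave 1435 calls on day 3 and 3728 on day 14, both relative to day 0. The block gave 3592 and 8249, and leaving out TMM gave 1596 and 9290. These totals apply to the lists below as well. PTAFR, the receptor for platelet-activating factor, fell from 68.3 ± 50.5 to 28.3 ± 8.30 FPKM (SD, n = 15, log2 fold change −0.98, SE 0.26, adjusted p = 0.00260 from limma, lower in 12 animals). CXCR4, which holds neutrophils in the marrow, fell from 343 ± 94.0 to 212 ± 46.1 FPKM (−0.67, SE 0.14, adjusted p = 2.03e-04, lower in 14 animals). FPR3, the neighbour of FPR2, had a log2 fold change of −0.20 (SE 0.20, adjusted p = 0.443, lower in 7 animals). The 1 receptor that rose was C3AR1. Between day 3 and day 14 limma called none of the 13, against 13.3% of all genes, and 4 had an unadjusted p-value under 0.05. With the block 4 were called, without animal 15 2 were, and without TMM, where the median gene was at −0.35, 10 were. Of all 18753 genes, 4455 were called with the block and 7206 without TMM.

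Ligands of these receptors moved in both directions. Of 7 tested, CXCL8 was lower and PPBP, a platelet chemokine precursor, was higher on both later days, and CXCL1 was lower on day 14, against 12.2% and 36% of all genes called on the 2 days. With the block 4 were called on day 3, and with the RNA integrity number none on day 14 by limma, where without TMM 5 were. CXCL8 fell from 48.9 to 17.1 FPKM by day 3 (−1.32 on the log2 scale, SE 0.35, adjusted p = 0.0113 from limma, lower in 12 animals), and it is named here after its values were seen. PPBP rose from 759 to 1654 FPKM by day 3 (1.36, SE 0.37, adjusted p = 0.0136, higher in 13 animals). ANXA1, whose product binds FPR2, did not pass on either day (−0.17, adjusted p = 0.630 on day 3, and 0.37, adjusted p = 0.136 on day 14).

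Of 23 tested genes that carry the signal of these receptors, 4 were called lower on day 3 than on day 0 (GNG2, PIK3CG, ELMO1 and RGS2), or 17.4%, near the 12.2% of all genes. Without animal 2, 7, 11 or 15, 2 were called, and 1 with the RNA integrity number. By day 14, 14 were called lower and 1 higher, against 36% of all genes, with a median of −0.42. With the RNA integrity number 5 were called, beside 3728 of all 18753 genes. RGS2, a brake on G protein signalling, fell from 601 to 231 FPKM by day 3 (−1.21, SE 0.32, adjusted p = 0.0109, lower in 13 animals). RGS18, the 1 gene that rose, went from 157 to 228 FPKM on day 14 (0.63, SE 0.25, adjusted p = 0.0472, higher in 10 animals). RAC2, a GTPase of the phagocyte oxidase and of cell movement, had a log2 fold change of −0.02 (adjusted p = 0.901). Between day 3 and day 14, 3 genes were called lower (DOCK2, ELMO1 and ADRBK2), a share of 13%, near the 13.3% of all genes, with 5 called without animal 7, 1 with the RNA integrity number and 19 without TMM. Of all 18753 genes, 1117 were called with the RNA integrity number and 7206 without TMM.

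Of 30 tested genes for other surface proteins of mature neutrophils, 11 were called lower and 1 higher on day 3 than on day 0, with a median of −0.80, against 12.2% of all genes. The 12 calls became 6 without animal 2, 7, 11 or 13 and with the RNA integrity number, 7 without the filter, 15 without animal 5 and 19 with the block. By day 14, 22 were called lower and 1 higher, against 36% of all genes, with a median of −0.93. With the RNA integrity number 9 were called, beside 3728 of all 18753 genes. With the block as well 15 were called, beside 4069 of all genes. TLR4 fell from 232 to 101 FPKM on day 14 (−1.08, SE 0.26, adjusted p = 9.86e-04, lower in 13 animals), and SELPLG, the ligand of P-selectin, from 216 to 143 (−0.49, SE 0.17, adjusted p = 0.0199). The gene called higher on both days was CXCL16. Between day 3 and day 14, 2 of 30 were called, IL17RA and CR1, both lower, or 6.67% against 13.3% of all genes, none without animal 1, 8, 9 or 12, and 13 without TMM (beside 7206 of all genes). CSF3R, the receptor for granulocyte colony-stimulating factor and a defining neutrophil gene, was detected at a mean of 179 FPKM on day 0 and 79.3 on day 14. The list was written with earlier results of these data known.

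Of 14 tested genes for granule proteins made by immature neutrophils, 1 (CEACAM8) was called lower on day 3 than on day 0, with a median of 0.23 over the list, and 3 (MMP8, CEACAM8 and BPI) on day 14, with a median of −0.995. These shares (7.14% and 21.4%) lay below the 12.2% and 36% of all genes called on those days. They do not show that the list changed less than other genes. On day 14, 12 of the 14 had a log2 fold change below 0, and the SE was wide for some (0.50 for CAMP and 0.82 for LTF). Without animal 14, 6 were called on day 14, 6 also without TMM, and 1 with the RNA integrity number. From day 3 to day 14 the median was −1.60 with 13 of 14 genes below 0, and MPO and BPI were called lower (14.3%, near the 13.3% of all genes). Without TMM 13 were called (beside 7206 of all 18753 genes), with the block 6 (beside 4455 of all genes), with the RNA integrity number or without the filter 0, and 0 also without each of 7 animals (1, 3, 6, 8, 9, 12 and 14). LTF (lactoferrin) had means of 30.1, 52.5 and 5.49 FPKM at the 3 time points and did not pass in any comparison (adjusted p = 0.318, 0.420 and 0.0625). Of 10 transcription factors listed for neutrophils, which need not be particular to them, KLF2 and KLF6 were called lower on day 3, and 5 were called lower and 1 (GFI1) higher on day 14 (20% and 60%, against 12.2% and 36% of all genes), and the 2 calls of day 3 became 1 without animal 2, 7, 11, 13 or 15 and 3 with the block. CEBPD was called on neither day (adjusted p = 0.217 and 0.0667 from limma). The cells in which these factors changed were not tested. KLF2 fell from 141 to 90.1 FPKM by day 3 in all 15 animals (−0.63, SE 0.11, adjusted p = 5.12e-04), and was at 80.0 on day 14.

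Markers of other blood cells were examined in the same way. Relative to day 0, 12.2% of all genes were called on day 3 and 36% on day 14. Of the red cell precursor markers, which had the highest median of the lists on day 14 (2.76 on the log2 scale), 6 of 10 were called higher on day 3 and 10 of 10 on day 14, and their summed level went from a median of 4845 FPKM (457 to 23609) on day 0 to 14033 (3805 to 43561) on day 3 and 36982 (7423 to 66209) on day 14. Of 9 platelet markers, 8 were higher on day 3 and 2 on day 14, with summed medians of 118, 425 and 194 FPKM and median log2 fold changes of 1.48, the highest of the lists on day 3, and 0.70. The day 14 count, 22.2% against the 36% of all genes, ran from 1 (without animal 3, 5, 6, 8 or 9) to 6 (without animal 13) and was 6 with the block. NK cell markers were higher for 4 of 10 genes on day 3 and 7 of 10 on day 14 (summed medians 245, 481 and 785 FPKM), and the day 3 count was 2 without animal 7 or 14, 7 with the block, 1 with the RNA integrity number and 0 without TMM. Monocyte markers, of cells that also express formyl peptide receptors, had summed medians of 1563 (823 to 7905), 1671 (864 to 2653) and 1602 (927 to 2535) FPKM. On day 3, 4 of the 10 were called higher, but leaving out 1 animal moved that count by more than 1.5 times for 11 of 15 animals, to 1 without animal 2, 3, 10 or 14, and it was 1 with the RNA integrity number, 1 without the filter and 0 without TMM. On day 14, 2 were higher (CX3CR1 and CD300E) and 2 lower (CD14 and VCAN), with 6 called under the block and 0 with the RNA integrity number. T cell markers had 1 of 9 called on each later day, CD28 lower on day 3 (0 called without each of 10 animals) and CD3D higher on day 14 (up to 3 called, without animal 3 or 5), with 2 and 3 called under the block and 0 on both days with the RNA integrity number. Without TMM 0 and 3 were called. Their summed medians were 677, 609 and 682 FPKM. B cell markers had 0 of 9 called by limma on day 3 (0 at an unadjusted p-value under 0.05) and 1 on day 14, with 348, 352 and 237 FPKM. Between day 3 and day 14, 4 of 9 were called lower, against 13.3% of all genes called and 5% called lower. The 1 call on day 14 vs. day 0 became 5 without animal 7, 3 with the block, 7 without TMM and 0 with the RNA integrity number, and the 4 became 2 without animal 2, 3, 8, 9 or 12 and 8 without TMM. Also between day 3 and day 14, 4 of 10 red cell precursor, 2 of 10 NK cell and 2 of 9 T cell markers were called higher. Lower were 2 of 9 platelet markers and 1 of 10 monocyte markers (CD14). Leaving out 1 animal gave 1 to 6 calls for red cell precursors, 1 to 3 for NK cells, 0 to 2 for T cells, 2 to 6 for platelets and 0 to 3 for monocytes. Of 8 eosinophil and basophil markers, 2 were higher on day 14, with 37.1, 54.8 and 63.8 FPKM, 1 without animal 3, 7, 9, 11 or 14, and 0 without TMM. The shares of T cell, B cell and eosinophil and basophil markers called on each later day relative to day 0 (0% to 25%) were below those of all genes. None of these lists had a gene at 0 in every library of a day. The part of these cells in the levels of the 9 genes was not tested.

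**Figure D5:**
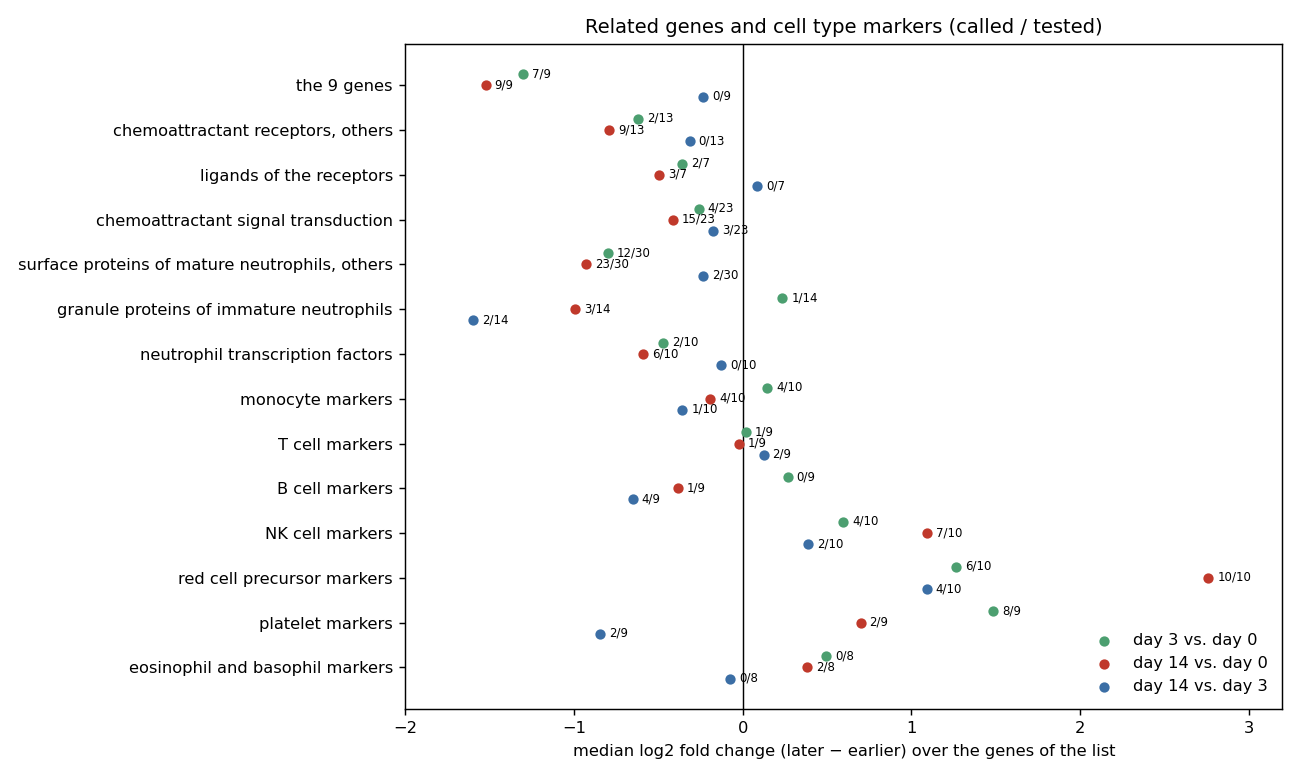
Median log2 fold change (x axis, later minus earlier) of the 9 genes and of lists of related genes and cell type markers (y axis) in the 3 comparisons. The numbers beside the points are genes called by limma of genes tested; the 9 genes have medians of −1.30, −1.52 and −0.23, other surface proteins of mature neutrophils −0.80, −0.93 and −0.24, and red cell precursor markers 1.26, 2.76 and 1.09.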

How the data were processed

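Total RNA from PAXgene whole-blood tubes was sequenced in 45 libraries (TruSeq Stranded, ribosomal and globin RNA removed, paired ends). The deposited values are FPKM, 1 table per library. Per the paper's methods and the submitters' processing notes, the authors used bcl2fastq 2.17, aligned reads with STAR to Chlorocebus_sabeus 1.1 and counted fragments with HTSeq. All deposited FPKM above 0 were whole multiples of the value of 1 fragment to within 0.02 fragments, which gave the fragments behind each value. The FPKM were divided by TMM factors (0.537 to 1.50, computed from those fragments with trims of 0.3 and 0.05), 0.1 was added, and log2 values of the 18753 genes with more than 0.5 CPM in at least 3 libraries were fitted with limma 3.58.1 (R 4.3.3) with 1 mean per day, all 45 libraries sharing the spread, and Benjamini-Hochberg adjustment over the tested genes (threshold 0.05). Fold changes of low genes are understated on this scale. The labels name no sequencing batch. The code was tested on simulated data.

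The 9 genes, the 14 gene lists and the tests were chosen with earlier results of these data known. Besides the 9 genes, the text names the 3 genes of each list with the highest mean FPKM, genes behind counts of 5 or fewer, and the 5 genes most like the set; CSF3R, CXCL8 and genes behind small counts were named after their values were seen. Replicate numbers are animals, so same-numbered libraries are from 1 animal: after removal of day means, same-animal libraries had a mean r across genes of 0.328 (41 of 45 pairs above 0.1) and others of −0.0382. Correlations used 100000 permutations (numpy 2.4.6). Alternatives left out TMM, the filter or each animal, changed the added value (1 or 0.01), or added a replicate block or the RNA integrity number. Promoter motifs were not searched and no sequence is printed, since none was used here.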

Additional observations from a re-analysis of the deposited data

How the results depend on the processing

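The log2 fold changes of the 9 genes from day 0 stayed below 0 under all alternatives run (no TMM, no filter, 1 or 0.01 added, replicate block, RNA integrity number, both, and each animal left out), and the median of the set moved by less than the spread between animals. Under the RNA integrity covariate, 5 of 9 genes in place of 9 were called for day 14 against day 0 (8 with the block as well). For day 3 against day 0, CXCR2 and MGAM lost their calls under it, which left 5 in place of 7 (7 with the block as well). For day 14 against day 3, 3 genes were called without TMM and 2 in the fit of differences within the animal, chosen after the data were seen, in place of 0. Without TMM the 9 genes were all lower on day 14 than on day 3, with a median of −0.61. With the animals as a replicate block, 3592 genes of all tested were called for day 3 against day 0 in place of 2292, and 4455 for day 14 against day 3 in place of 2498; the block changed no member's call but that of FPR1 on day 3. On day 14 vs. day 3, 7206 were called without TMM (606 higher and 6600 lower, against 1560 and 938 with it), 4578 from differences within the animal, 1638 without the filter, where more genes were tested, and 1117 with the RNA integrity number. That covariate gave 1435 calls for day 3 and 3728 for day 14, both against day 0, and 4069 for day 14 with the block as well. Without TMM, 1460 genes were higher and 7830 lower on day 14 vs. day 0. Leaving out each animal gave 1358 (without animal 2) to 2359 calls for day 3 against day 0, 5897 to 6903 for day 14 against day 0, and 792 (without animal 8) to 3115 for day 14 against day 3. Of the 27 relations between days, 7 passed as reported, 0 without TMM and 2 on FPKM in place of log2 values (FPR1 between days 3 and 14, and CXCR1 between days 0 and 14, which is not among the 7). Of 966 recomputed counts for the lists, 739 stayed within 1.5 times, 151 were lower and 76 higher. By mean in place of median FPKM, 3 of 9 genes kept their place in the order on day 0, and 7 on days 3 and 14. Where no cause is given here, the cause was not tested. The median over animals in place of the fitted mean, added after the data were seen, gave −1.16, −1.71 and −0.23 for the median of the set in the 3 comparisons. The day 0 libraries alone come from the field, so that no alternative separates place and sedation from the day. The RNA integrity numbers were read from the study's supplement.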
